A study of Solenopsis invicta with 32 samples.

Results

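The brain and the ovary of overwintered fire ant gynes were compared within each gyne. A gyne is a female ant that can become an egg-laying queen. The 8 brains and 8 ovaries of the overwintered gynes of Solenopsis invicta make up 16 of the 32 libraries of a study of plasticity in queen weight. Libraries were assigned to organ and treatment by their labels alone, and the 2 organs of a gyne were paired by the colony code and replicate number in their titles. All gynes, overwintered or spring-reared, came from monogyne colonies, in which a single queen lays eggs, and carried the genotype SB/SB at the social supergene. Each colony gave 1 gyne, so the 8 pairs stand for 8 animals and 8 colonies. The labels used here state neither age nor mating state. The 16 libraries of spring-reared gynes, 8 brains and 8 ovaries of the same genotype from other colonies, serve below as separate animals in which the same difference was measured.

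The insect brain consists mainly of neurons and glia, which need large amounts of RNA for synaptic proteins, ion channels, receptors and secreted neuropeptides. The ovary of an ant holds germline cells with their nurse cells and the somatic follicle cells around them, and it makes RNA both for dividing cells and for stores laid down in the egg. Whole organs were sequenced, so fewer cells of a type and less RNA per cell cannot be told apart. Gene names could not be used: the count files list 16314 identifiers without names, and 0 of them were found in the RefSeq gene table. Results are given by organ, level and spread in place of gene function. The markers of neurons, glia, germline, follicle cells, fat body and muscle could not be looked up, so the labelled organs were not checked against them. At most 2 identifiers per direction are given.

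The organs also differed in how their RNA was handled. Per the labels, brain RNA came from a micro kit and ovary RNA from a mini kit, and each library was made by Smart-seq2, an amplification of polyadenylated RNA for small samples, from 1.6 ng of brain RNA or 8.0 ng of ovary RNA. Kit and input cannot be told apart from organ in any result here. Gene counts ran from 9612985 to 17032204 per brain and from 11444437 to 23656547 per ovary. Reads that did not map made up 17.3% ± 6.03 of brain libraries and 3.47% ± 0.928 of ovary libraries (SD, n = 8 each). Brain exceeded ovary in 8 of 8 gynes (exact two-sided sign-flip permutation p = 0.00781, the smallest that 8 pairs allow, adjusted p = 0.013 over 10 library measures). Reads outside gene models were 12.8% ± 2.18 in brain and 7.13% ± 0.802 in ovary, and reads that mapped to several places 8.59% ± 0.553 and 6.10% ± 0.427, each also higher in 8 of 8 brains with the same p. Ovaries 1 and 5 stood apart from the other ovaries, ovary 1 in the share of reads outside gene models (8.97%, against 6.14% to 7.07%) and ovary 5 in its most abundant genes, as described below.

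Most genes differed in level between brain and ovary. Organ was by far the main axis of the data: the first principal component held 86.0% of the variance, and brains lay between 90.7 and 95.4 on it and ovaries between -104.2 and -82.6. Of 9896 genes with enough counts to be tested, 3809 were higher in brain and 3801 higher in ovary, which together is 76.9% of the genes tested, 38.5% and 38.4% in each direction (edgeR quasi-likelihood test with the gyne as a block, Benjamini-Hochberg adjusted p under 0.05). For 50.7% of genes the 8 libraries of one organ all lay above the 8 of the other, 2458 genes (24.8%) with brain on top and 2560 (25.9%) with ovary on top. All of these were among the called genes.

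Large differences leaned towards brain. Tested against a minimum difference of 4-fold with edgeR's glmTreat, which asks whether a fold exceeds a set size and not merely 1, 1345 genes (13.6%) were higher in brain and 820 (8.29%) higher in ovary. Against 2-fold the numbers were 2324 (23.5%) and 1853 (18.7%). The genes past 4-fold are called brain-biased and ovary-biased from here on. Leaving out each gyne in turn gave 1295 to 1400 brain-biased and 773 to 841 ovary-biased genes. Of the brain-biased genes 1234 (91.7%) passed in all 8 of these fits, and of the ovary-biased 738 (90%). Small differences leaned the other way with the TMM scaling of the main fit: among called genes, 1410 of the ovary's differed by less than 2-fold in the fit and 1006 of the brain's. This lean was not recomputed under other scalings. In absolute size, the log2 difference of a called gene had a median of 1.77 on the brain side and 1.28 on the ovary side.

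**Figure D1:**
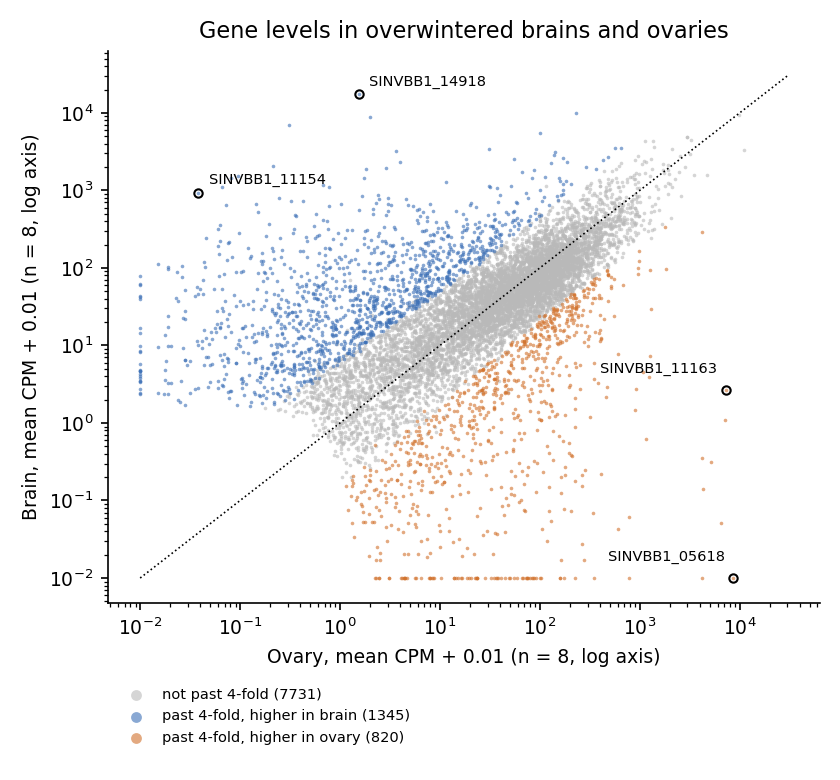
Mean CPM (counts scaled to the size of the library, n = 8) of each of the 9896 genes tested in ovary (horizontal, log axis) and brain (vertical, log axis), with 0.01 added so that genes at 0 can be drawn; blue points are the 1345 brain-biased genes, orange points the 820 ovary-biased genes, grey points the rest, and the dotted line marks equal levels. The 4 genes named in the text are ringed. The column of points at the left edge and the row at the bottom are genes with no count in any library of one organ.

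With TMM scaling, the balance between the organs changed with how abundant a gene was. Levels are CPM, scaled by TMM, and are not divided by gene length, so they order genes by counts and not by molecules. Among 2264 genes averaging 1 to 10 CPM over both organs, 42.4% were higher in brain and 27.9% in ovary. Among 2503 genes of 100 to 1000 CPM, 34.5% were higher in brain and 45.9% in ovary, and in the middle class of 10 to 100 CPM the shares were 39.1% and 39.7% of 4904. The 95 genes of 1000 CPM or more leaned towards brain again, with 49 higher in brain and 29 in ovary. The lean of the 2503 genes of 100 to 1000 CPM towards ovary was present under all 6 scalings run, at its weakest with cyclic loess normalization (1022 higher in brain and 1062 in ovary). The lean of the 2264 genes of 1 to 10 CPM towards brain turned round with quantile normalization (782 and 847) and cyclic loess normalization (751 and 872), both fitted with limma voom. Under TMM, brain-biased genes outnumbered ovary-biased ones in each class from 1 CPM upwards, with 418 against 239, 653 against 405, 245 against 144 and 21 against 10. Only among the 130 tested genes under 1 CPM was this turned round, at 8 against 22.

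Genes whose level was shown to be close in both organs were the minority. For 2780 genes (28.1%) the 95% interval of the difference, taken from the edgeR standard error with 7 degrees of freedom, lay within 2-fold either way. Of these, 1213 still differed by a small amount that passed the test. A further 719 genes that were not called had intervals reaching past 2-fold, so for them these libraries do not show whether the organs differ. At 100 CPM or more in both organs, 924 genes lay within 2-fold, and at 1000 CPM or more 17 did. The most abundant gene over all 16 libraries, given here without its identifier since it was picked for its level, was one that could not be placed. It ranged from 1156 to 23115 CPM in brains (median 9333) and from 3776 to 13475 CPM in ovaries (median 10478), and the groups overlapped. Brain was higher in 3 gynes and ovary in 5 (log2 fold change -0.27, SE 0.42, edgeR adjusted p = 0.569).

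The gene with the highest level among the brain-biased genes was SINVBB1_14918. It ran from 9428 to 27911 CPM in the 8 brains, with a median of 17128, and from 0.503 to 4.74 CPM in the 8 ovaries, with a median of 1.10. Brains and ovaries did not overlap, and the brains differed by no more than 2.96-fold. The log2 fold change was 13.66 (SE 0.64, edgeR adjusted p = 3.64e-09), and pooled over libraries the level was 9348-fold higher in brain (95% interval 8203 to 10701, for the counting error of the 225 ovary counts only). Ovary 3 held 114 of these counts, and without it the pooled ratio was 15346. In spring-reared gynes the gene stood at 8843 to 16298 CPM in brains and 0.196 to 7.06 CPM in ovaries.

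SINVBB1_11154 had the largest fold among brain genes of at least 100 CPM. Its brain levels were 629.1 to 1325 CPM, with a median of 902, a 2.11-fold range. In the ovaries 5 of 8 libraries held no count and the highest held 0.0842 CPM, 4 counts in all over the 8 libraries. The log2 fold change was 14.49 (SE 0.31, edgeR adjusted p = 2.48e-11). Since the ovary side rests on 4 counts, the pooled ratio of 29470 has a wide counting interval, 11510 to 108160, and was 47734 without ovary 3, which held 2 of the 4. Among spring-reared gynes the 8 ovaries held 1 count in all and brains 880.6 to 1581 CPM. Both brain genes were thus steady among brains and close to absent from ovaries, in either treatment.

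The ovary genes named by the same rule differed more among ovaries than the brain genes did among brains. SINVBB1_05618 had 0 counts in all 8 brains and 904.6 to 28983 CPM in ovaries, with a median of 5924, so that ovaries differed among themselves by 32.04-fold. With a floor of 3 counts per brain library, its mean level of 8643 ± 9182 CPM (SD, n = 8) was at least 35647-fold higher in ovary (edgeR adjusted p = 4.07e-06). Without ovary 5 the mean was 5737 ± 4421 CPM (n = 7) and the bound 23663-fold. In the gyne with the smallest difference the ovary was still at least 2481-fold above the floor of its brain. In spring-reared gynes the brains also held 0 counts. Their ovaries ran from 745.9 to 1667 CPM in 7 gynes, and spring-reared ovary 6 held 12141 CPM.

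SINVBB1_11163 varied more than any other named gene. Its ovary levels ran from 199.3 to 29134 CPM, with a median of 5459, a 146.2-fold range over 8 ovaries. Brains held 0.506 to 8.75 CPM, with a median of 2.04, and did not overlap the ovaries. The log2 fold change was -10.59 (SE 1.28, edgeR adjusted p = 1.25e-05), the ovary being higher in 8 of 8 gynes. It was -9.96 without gyne 5, -11.26 without gyne 1, -11.19 without gyne 3 and -11.48 without the gyne as a block. In spring-reared gynes the same difference was smaller, at -4.32 on the log2 scale (edgeR adjusted p = 0.00202), with ovaries from 4.76 to 17.9 CPM in 7 gynes and 1153 CPM in ovary 6. The test of the difference between treatments gave an interaction of -6.28 on the log2 scale (SE 1.98, edgeR adjusted p = 0.136). Without spring-reared gyne 6, which was left out after the data were seen, it was -7.20 (SE 1.69, adjusted p = 0.0487). For both ovary genes the highest level was that of ovary 5.

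**Figure D2:**
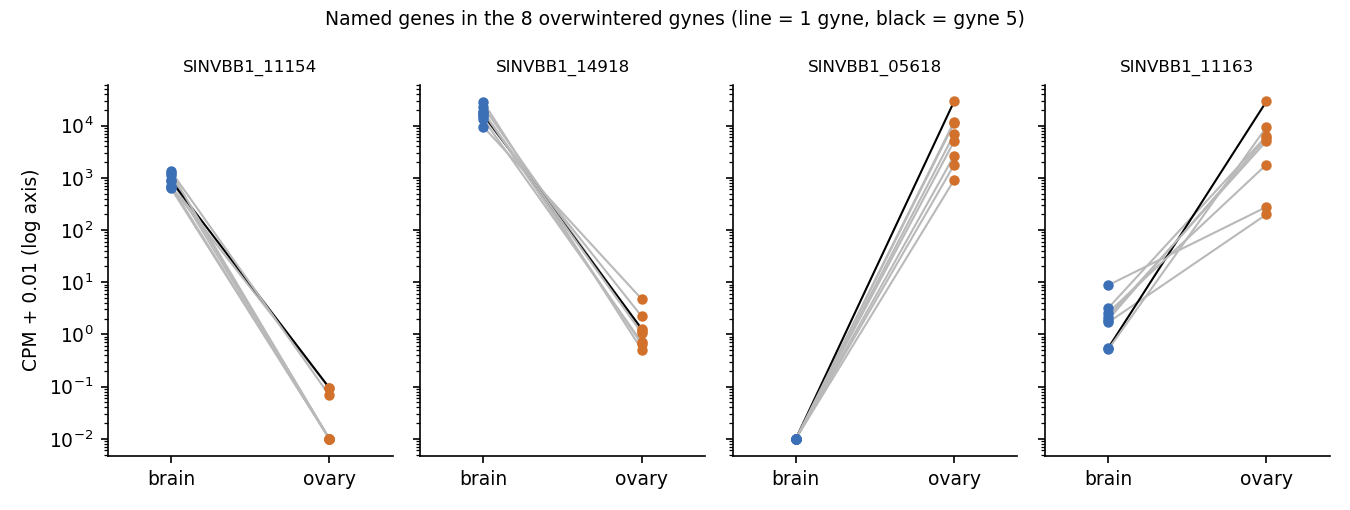
Level of the 4 named genes in the brain (blue) and ovary (orange) of each of the 8 overwintered gynes, in CPM with 0.01 added, on a log axis shared by the panels; each line joins the organs of 1 gyne, and gyne 5 is drawn in black. The 2 brain genes form tight groups in brain, whereas the ovary levels of SINVBB1_05618 and SINVBB1_11163 spread over 32.04-fold and 146.2-fold and are highest in gyne 5.

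The 20 genes with the largest folds in each direction, of at least 100 CPM in the higher organ and the same direction in 8 of 8 gynes, were picked for their folds, so their values are a description. On the brain side their log2 fold changes ran from 11.65 to 14.49, their brain levels from 103.5 to 17568 CPM, and none reached 2 CPM on average in ovary. None was without any ovary count. On the ovary side the fitted log2 values ran from 12.57 to 19.97 in absolute size, and 10 of the 20 had no count in any brain, so that their fitted values are no measure of size. The SD of the difference over gynes ran from 0.19 to 1.85 among the brain genes and from 0.19 to 2.44 among the ovary genes, on the log2 scale. In spring-reared gynes 18 of the 20 brain genes and 16 of the 20 ovary genes were past 4-fold in the same direction. Over the whole classes, 76.7% of brain-biased and 77.9% of ovary-biased genes were, so these counts show little that is particular to the 20 genes. The remaining genes of the ovary-biased class were less extreme: the class had a median of 47.8 CPM in ovary and 1.37 CPM in brain, and the brain-biased class 43.1 CPM in brain and 1.47 CPM in ovary.

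Genes with a count in every library of one organ and in none of the other were commoner on the ovary side. Counted over all 16314 gene models, 153 had a count in all 8 ovaries and none in any brain, and 51 had a count in all 8 brains and none in any ovary. Brain libraries were shallower. With all libraries thinned to 9612985 counts the numbers were 146 and 60, and with at least 3 counts asked of each library 113 and 34. With a count asked of any library of an organ and not of all 8, the numbers were closer, 827 in ovary alone and 727 in brain alone. Brain libraries also had the smaller RNA input, and its part in these numbers was not tested. Most of the 153 and 51 genes were low, with medians of 1.68 CPM in ovary and 2.71 CPM in brain. Of the 153 ovary genes 10 averaged 100 CPM or more, while the highest of the 51 brain genes reached 79.6 CPM. When a trace in the other organ was allowed, the classes had like shares: 594 brain-biased genes (44.2% of the class) averaged under 1 CPM in ovary, and 375 ovary-biased genes (45.7%) under 1 CPM in brain. Of these, 80 and 49 reached 100 CPM in the higher organ, 5.95% and 5.98% of each class.

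Biased genes took a larger share of counts in brain than in ovary, and the brain-biased class also holds more genes (1345 against 820). Brain-biased genes took 24.9% ± 1.16 of gene counts in brains, from 23.2% to 27.1%, and 1.503% ± 0.209 in ovaries (SD, n = 8 each). Ovary-biased genes took 14.1% ± 3.48 in ovaries, from 9.97% to 21.9%, and 0.729% ± 0.0677 in brains. The classes were chosen on these libraries, so the shares are a description. In the spring-reared libraries, which did not choose them, brain-biased genes took 25.2% ± 1.81 of brain counts and 1.77% ± 0.274 of ovary counts, and ovary-biased genes 10.7% ± 1.08 of ovary counts and 0.974% ± 0.335 of brain counts. The high end in overwintered ovaries was ovary 5, without which the ovary-biased share was 12.95% ± 1.61 (n = 7). The 5 genes that contributed most to the ovary-biased class took between 0.764% and 7.55% of an ovary's counts, the latter in ovary 5. The corresponding 5 brain genes took between 3.69% and 6.31% of a brain's.

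**Figure D3:**
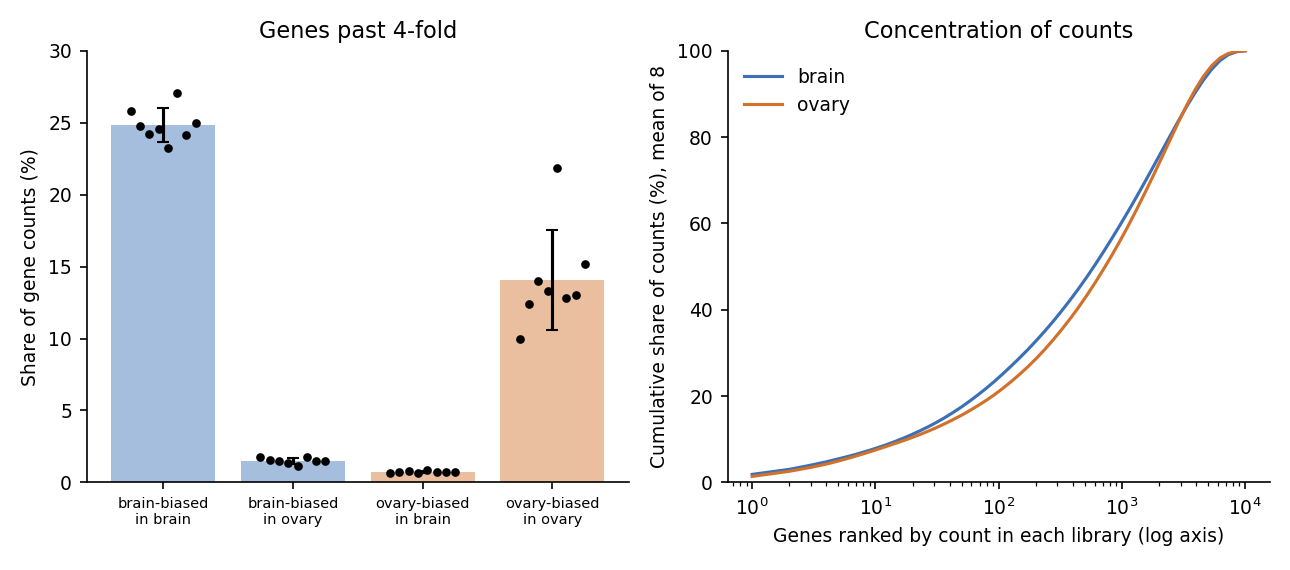
Left, share of all gene counts (%) taken by brain-biased (blue) and ovary-biased (orange) genes in the 8 overwintered brains and 8 ovaries, with bars for the mean, error bars for the SD and a point per library. Right, cumulative share of counts (%, mean of 8 libraries) against genes ranked by count within each library, on a log axis. At the ranks drawn, the brain curve lies above the ovary curve from rank 1 to rank 2868 and slightly below it from rank 3353.

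The organs shared few of their most abundant genes at the very top and more further down. The 10 most abundant of each organ had 1 gene in common, the 100 most abundant 36, and the 1000 most abundant 541. Of the top 10 in brain 5 were brain-biased, and of the top 10 in ovary 7 were ovary-biased. All 7 averaged under 10 CPM in brain, while 3 of brain's top 10 averaged under 10 CPM in ovary. At the 1000 most abundant, 231 of brain's genes were brain-biased and 122 of ovary's were ovary-biased. Over all genes tested, 13.6% were brain-biased and 8.29% ovary-biased. Each list was ranked by level in its own organ, which favours genes biased towards that organ, so these counts are a description.

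Neither measure of how counts were concentrated in few genes passed the threshold over all 8 gynes. The number of genes that together held 50% of counts was 595.4 ± 66.3 in brain and 740.4 ± 148.3 in ovary (SD, n = 8), higher in ovary in 7 of 8 gynes (exact sign-flip permutation p = 0.0781, adjusted p = 0.0868). The exception was gyne 5, whose ovary needed 414 genes. The mean difference of brain minus ovary was -145 genes, -197.7 without gyne 5 (exact permutation, adjusted p = 0.0195) and -102.7 without gyne 1. The 10 most abundant genes took 7.88% ± 0.724 of brain and 7.51% ± 2.65 of ovary counts (exact permutation, adjusted p = 0.766, n = 8), and brain minus ovary was 1.35 percentage points without gyne 5 (exact permutation, adjusted p = 0.0195) and -0.0355 without gyne 1. Gyne 5 was left out as the gyne that differed in sign, so the values without it are no independent result.

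More genes were detected in ovaries, 11318 ± 146.5 with at least 1 count against 11006 ± 250.3 in brains (SD, n = 8), in 8 of 8 gynes (exact sign-flip permutation p = 0.00781, adjusted p = 0.013). Total counts were also higher in ovary, in 7 of 8 gynes. With all libraries thinned to the same depth the means were 11087 ± 121.4 and 10904 ± 223.7, the ovary was higher in 5 of 8 gynes, and the difference missed the threshold (exact permutation p = 0.0625, adjusted p = 0.0781). Taking the 8 libraries of an organ together, 12744 gene models had a count in some brain, 12844 in some ovary and 12017 in both, and 2743 had none in any of the 16 libraries.

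In these libraries brains varied more from gyne to gyne than ovaries. The median absolute deviation of a library from the mean of the other 7 of its organ was 0.24 ± 0.04 in brain and 0.17 ± 0.06 in ovary on the log2 scale (SD, n = 8), higher in brain in 8 of 8 gynes (sign-flip permutation p = 0.00781, adjusted p = 0.013). The 8 deviations of an organ draw on the same libraries and are not independent, so this p is approximate. Among 6039 genes of at least 10 CPM in both organs, the median SD of log2 CPM was 0.27 over brains and 0.22 over ovaries, and 64.3% of genes had the larger SD in brain. The smaller RNA input and the higher share of unmapped reads in brain libraries moved with this difference, and their part in it was not tested. The highest deviation in either organ was in gyne 1, at 0.32 for its brain and 0.29 for its ovary.

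Within each organ, its own biased genes were the more variable ones. In brains the median SD of log2 CPM was 0.36 for 1084 brain-biased genes of at least 10 CPM there and 0.28 for 6009 genes that were not past 4-fold. In ovaries it was 0.28 for 629 ovary-biased genes and 0.22 for 5873 others. The upper tail separated further. An SD above 1 was found for 7.79% of the ovary-biased genes against 1.11% of the others in ovary, and for 5.07% of brain-biased genes against 2.05% of the others in brain. These classes were drawn on the same libraries, so no test is given. Leaving out each ovary in turn changed the 49 ovary-biased genes with an SD above 1 to between 39 and 50.

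**Figure D4:**
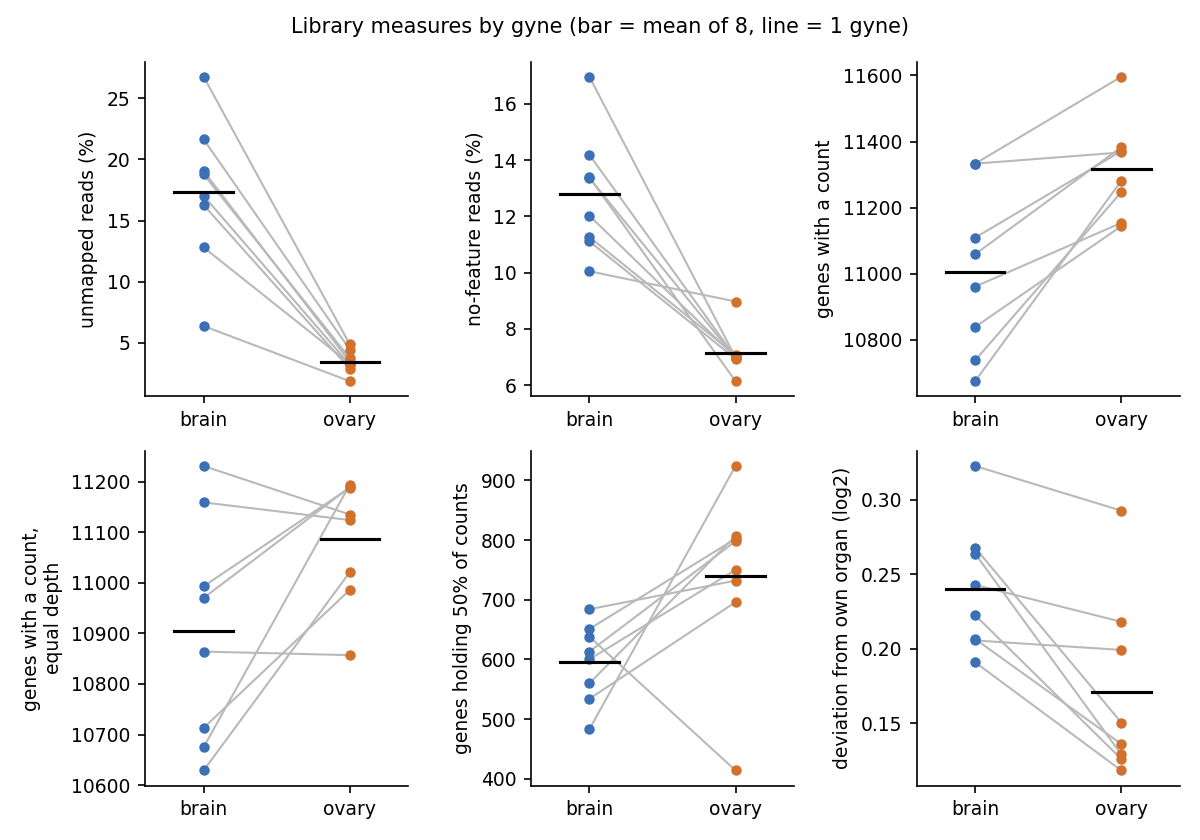
Measures of the 16 libraries, brain in blue and ovary in orange, with a line per gyne and a black bar for the mean of 8: unmapped and no-feature reads in % of all reads, genes with at least 1 count before and after thinning to equal depth, the number of genes that hold 50% of counts, and the median absolute log2 deviation from the other 7 libraries of the organ. Unmapped reads, no-feature reads and the deviation are higher in brain in 8 of 8 gynes, whereas the lines cross for genes detected at equal depth.

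Most organ differences had the same sign in every gyne. Of the 3809 genes called higher in brain, 2993 (78.6%) were higher in the brain of all 8 gynes, and of the 3801 higher in ovary, 3171 (83.4%). Among brain-biased genes this held for 1327 of 1345 and among ovary-biased genes for 814 of 820, which the test itself favours. The 8 profiles of brain minus ovary, taken across genes on the log2 scale, correlated with each other at Pearson r from 0.836 to 0.958, with a median of 0.929 over 28 pairs. They share the gene set and the scaling, and genes are not independent replicates. Gyne 1 was the least like the others, at a mean r of 0.870.

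The same difference was present in spring-reared gynes, which share no library, animal or colony with the overwintered ones. There 3437 of 9624 genes (35.7%) were higher in brain and 3738 (38.8%) higher in ovary. Of the overwintered brain calls 3095 were called in the same direction in spring-reared gynes, which is 81.3% of the overwintered and 90.05% of the spring-reared list. For ovary the shared calls were 3302, or 86.9% and 88.3%. In spring-reared gynes 1143 genes (11.9%) were past 4-fold in brain and 795 (8.26%) in ovary, 1032 and 639 of them shared with the overwintered classes. Brain-biased genes had a median log2 fold change of 4.32 in overwintered gynes and 4.14 in spring-reared ones, and ovary-biased genes -4.43 and -4.83. Across the 9531 genes tested in both treatments the log2 fold changes had Pearson r = 0.964 and Spearman rho = 0.950, a description over genes that share their organs' biology and their library methods.

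Few genes passed the test for an organ difference that depended on treatment. A gene that was not called was not thereby shown to have the same difference in both treatments. A test of the interaction over all 32 libraries, with the gyne as a block, called 123 of 10448 genes (1.18%), 40 with a difference shifted towards brain in overwintered gynes and 83 shifted towards ovary. Without the block it called 114 and 171. For 77 of the 123 the organ difference was called in the same direction in both treatments and so differed in size, 49 of them with brain higher and 28 with ovary higher. In 22 it was called in spring-reared gynes alone and in 12 in overwintered gynes alone, while 7 were called in opposite directions, 6 of these with ovary higher in overwintered and brain higher in spring-reared gynes. The remaining 5 were not tested in spring-reared gynes. Among the 2165 genes past 4-fold, 49 (2.26%) were called in the interaction test. Colony codes begin differently in overwintered and spring-reared gynes, so treatment cannot be told apart from the set of colonies.

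**Figure D5:**
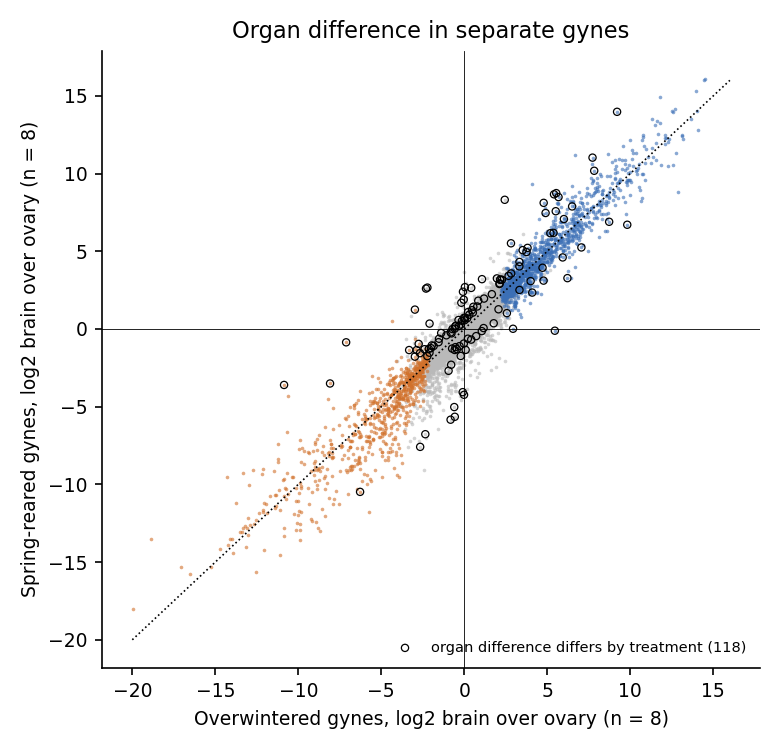
Log2 fold change of brain over ovary in overwintered gynes (horizontal, n = 8) and in spring-reared gynes (vertical, n = 8) for the 9531 genes tested in both, with brain-biased genes in blue, ovary-biased genes in orange and the dotted line for equal values. Rings mark the 118 of 123 genes called in the interaction test that were tested in both treatments, and most other points lie along the line.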

How the data were processed

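Gene counts were deposited by the authors as whole numbers per gene model. Per the submitters' processing notes, tools included Trim Galore 0.6.5 for trimming, STAR 2.7.3a and edgeR. The genome build is not given in the sources used here, nor is the annotation. Smart-seq2 does not mark strand, so genes that overlap on opposite strands cannot be separated. Genes that overlap on the same strand and near-identical genes cannot be fully separated either, for reasons other than strand. The 4 summary lines (unmapped, multimapping, no-feature, ambiguous) stayed out of library sizes and tests. The 32 columns of the authors' CPM tables were not used, because each organ was scaled over its own gene list.

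Tests were run with edgeR 4.0.16 in R 4.3.3 (TMM, filterByExpr by organ, robust quasi-likelihood F-test, gyne as block, Benjamini-Hochberg over all genes tested, threshold 0.05). The standard error of a log2 fold change is its size over the square root of F. Log2 CPM used a pseudocount of 2. An exact two-sided sign-flip permutation over 8 gynes served for library measures. For the deviation of a library from its organ, whose 8 values are not independent, the p is approximate. Intervals cover counting error only where so stated.

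Organs were paired by colony code, from the labels. The deviations of the 2 organs of a gyne from their group means correlated at 0.131 on average (-0.0918 to 0.327), those of different gynes at -0.0191, and 3 of 8 brains correlated best with their own ovary. Deviations from a group mean cancel over the gynes, which pushes the value for different gynes to the opposite sign, so it is no separate baseline. Any 2 libraries of an organ differed beyond counting noise, with a chi-square of at least 36.2 for each degree of freedom.

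Named genes were, per direction, the gene with the largest fold among those of at least 100 CPM, and the most abundant gene past 4-fold (or the next one where that gene was already named, as with SINVBB1_05618, so that SINVBB1_11163 was taken), both with 1 direction in 8 of 8 gynes. The comparison, rules and lists were chosen with earlier results of these data known. Alternatives were RLE, upper quartile and no scaling factors, DESeq2 1.42.0, limma 3.58.1 voom (with quality weights, quantile or cyclic loess normalization), no or a stricter filter (1 CPM in 8 libraries), thinned counts, the 10 most abundant genes of each organ left out, a threshold of 0.01, no block, and libraries left out.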

Additional observations from a re-analysis of the deposited data

Results flagged for a closer look

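Of 31 groups of 8 values examined (library measures, named genes and shares of biased genes, by organ), 9 held a value far from the others. The cutoff used flags about 1 in 20 groups by chance only where values follow a normal distribution, which is not shown here. The groups also overlap, and the named genes were picked for their folds or levels in these libraries. The 9 of 31 is therefore no measure of an excess over chance. In 5 of the 9 the value was that of ovary 5. These 5 are not separate events, since both named ovary genes count towards the ovary-biased share. In ovary 5 the 10 leading genes held 13.7% of all counts, against 4.96% to 7.67% in the other ovaries, and 414 genes held 50% of its counts, against 696 to 924. Ovary-biased genes took 21.9% of its counts, against 9.97% to 15.2%. It held 28983 CPM of SINVBB1_05618, against 904.6 to 11937, and 29134 CPM of SINVBB1_11163, against 199.3 to 9396.

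Ovary 3 had 23656547 gene counts, against 11444437 to 15779666 in the other ovaries, and 4.74 CPM of the brain gene SINVBB1_14918, against 0.503 to 2.19. Ovary 1 had 8.97% of its reads outside gene models, against 6.14% to 7.07%. Brain 1 held 8.75 CPM of the ovary gene SINVBB1_11163, against 0.506 to 3.19 in the other brains.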

How the results depend on the processing

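Of 311 recomputed values, 303 kept their direction and their side of the threshold or, for counts of genes, stayed within 1.5 times the reported count. This holds for every count of genes in the organ contrast and for the 4 named genes (edgeR, DESeq2 or limma adjusted p at most 7.53e-05). The 311 values include 23 for SINVBB1_11154 and 22 for each other named gene. These genes were picked for their folds or levels, so a change of direction or threshold side was hardly possible. The tally of 303 is therefore no measure of how stable the other results are. The log2 fold change ran from 13.46 to 15.18 for SINVBB1_11154, from 12.93 to 14.08 for SINVBB1_14918 and from -11.48 to -9.96 for SINVBB1_11163. The 8 others follow. Without the replicate block (8 against 8 labels), total counts no longer differed past the threshold (brain minus ovary -1973669, exact permutation, adjusted p = 0.251), the number of genes holding 50% of counts did (-145, adjusted p = 0.036), and the interaction called 114 and 171 genes in place of 40 and 83; no other result crossed its threshold or moved by over 1.5 times in a count of genes without the block, although single gene calls can differ. With each gyne left out in turn, the difference in the share of the 10 most abundant genes ran from -0.0355 (without gyne 1) to 1.35 percentage points (without gyne 5), and in genes holding 50% of counts from -197.7 (without gyne 5) to -102.7. With thinned counts, the difference in genes detected was -182.5 (exact permutation p = 0.0625).

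Scaling moved the median log2 fold change of all genes from -0.01 to 0.11 with upper quartile factors, -0.11 with total counts and -0.125 with quantile normalization; the share of calls higher in brain then ran from 46.3% to 53.9%, in place of 50.1%, so which organ has more calls depends on the scaling. The share of genes past 4-fold that were higher in brain ran from 58.9% to 65.2% over the edgeR settings, in place of 62.1%. The 4-fold test was not run with DESeq2, with limma voom (quantile and cyclic loess normalization included) or at the 0.01 threshold. The planned strand columns are not used here, since the files hold 1 count column, and the marker lists could not be matched. A level of 1 CPM stood for 8 to 24 counts per library, which limits the folds of genes near it.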

Other observations

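The organ difference was weakly correlated between genes in neighbouring rows of the count files. The log2 fold changes of tested genes 1 row apart had Spearman rho = 0.188 over 9895 pairs. At 2 rows the value was 0.086, at 5 rows 0.013 and at 1000 rows 0.010. Whether the row order follows the genome is not given in the sources used here, and genes are not independent, so no p is given.

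Few identifiers that end in a letter passed the filter on counts. There are 1553 of them among the 16314, and 93 (5.99%) had enough counts to be tested, against 66.4% of the 14761 others. Of the 93, 21 (22.6%) were brain-biased and 3 (3.23%) ovary-biased, against 13.5% and 8.33% of the other tested genes. The files do not say what the letter marks, and whether reads mapping to several places lower their counts was not tested. This grouping was chosen after the identifiers were seen.

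Genes called in opposite directions in the treatments numbered 9, against 3095 called higher in brain and 3302 called higher in ovary in both. Of the 9, 7 were higher in ovary in overwintered and higher in brain in spring-reared gynes. The interaction was called for 7 of the 9. Picking genes by opposite calls in the same libraries favours this, so it is no separate support.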
